A study of Mus musculus with 13 samples.

Results

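Transcripts of axon guidance ligands and receptors were read on 13 expression arrays, each with RNA of 1 brain hemisphere of a different male C3HeB/FeJ mouse, an inbred strain. The members are every gene whose symbol, in the array's probe annotation, marks it as a semaphorin (Sema), plexin (Plxn), Slit, Robo, Eph receptor (Epha, Ephb) or ephrin (Efna, Efnb). A probe set, the group of probes that reads 1 transcript, counted only where the annotation gave it 1 gene symbol. This rule found 129 probe sets of 58 genes, of 45037 probe sets tested and 18193 genes with a symbol. The members are 20 semaphorins, 9 plexins, 3 Slits, 4 Robos, 13 Eph receptors, 8 ephrins and 1 antisense RNA, Plxna4os1, whose name begins like that of the plexin it lies against. Ephb2 was not analysed here.

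The study compared 6 mice that ate pellets with 1% creatine for 6 months with 7 untreated mice on pellets of equal calories without creatine. All mice were aged 10 to 12 weeks when feeding began and had no genetic change named in the labels. The replicates are labelled as biological and were taken as separate mice, and which hemisphere was used is not given in the sources used here. Creatine is the compound that creatine kinases charge with phosphate to buffer the ATP of a cell.

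Guidance proteins steer growing axons by attraction or repulsion at the growth cone, the motile tip of the axon. Semaphorins act mainly through plexins, with neuropilins as co-receptors for most class 3 members. Slits act through Robos, best known for keeping axons from crossing or recrossing the midline. Ephrins are bound to the cell surface, the A class by a lipid anchor and the B class by a transmembrane domain, and activate Eph receptor tyrosine kinases on the neighbouring cell, often with a return signal into the ephrin cell. In the adult brain many of these genes stay on, with known roles in synapses, dendritic spines, blood vessels and glia.

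Each value is an array intensity in arbitrary units, as deposited. Where a gene had several probe sets, the one with the highest mean over the 13 arrays stands for it. Array medians ran from 37 to 45, and a member is called dim where both group means lay under 37. That held for 7 of the 58: Sema3b, Robo3, Epha1, Epha2, Ephb4, Efna4 and Plxna4os1. Differences are log2(intensity + 16) in creatine-fed minus untreated mice with the standard error of the limma fit, and adjusted p is by Benjamini-Hochberg over all 45037 probe sets. A count of higher or lower means refers to the means of these log2 values. Intensities of different probe sets are not comparable as levels, so no order of expression among the genes is given. Across probe sets Pearson's r between pairs of arrays ran from 0.975 to 0.987 on the log2 scale. The log2 ratio of 3' to 5' control probe sets, a sign of RNA quality, ran from 0.09 to 0.22 in creatine-fed and from 0.13 to 0.24 in untreated mice (difference -0.02, exact permutation p = 0.382, 2-sided). Arrays also differed in markers of the cerebellum. The summed intensity of 7 cerebellum markers was 2517 in untreated replicate 3, where it ran from 9332 to 17073 in the other 6, and 5820 in creatine-fed replicate 4, where it ran from 7795 to 13330 in the other 5.

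No guidance gene passed limma's test after adjustment. An exact permutation test passed none either, and its lowest adjusted p over all probe sets was 0.17. The lowest limma adjusted p at a brightest probe set was 0.16, for Plxna2, and over all 129 probe sets it was 0.139, where 0.00888% of all probe sets passed. At an unadjusted p under 0.05, 5 of the 58 genes were on the higher side (8.62%), where 3.58% of all genes were, and 1 was on the lower side (1.72%), where 7.61% of all genes were. The 5 were Plxna2, Plxnd1, Sema5a, Ephb6 and Epha2, and the 1 was Plxna3. Of the 6 genes, 5 are among the 26 receptors and 1, Sema5a, is among the 31 ligands. Over all probe sets, 10 of 57 for receptors and 5 of 71 for ligands were on the higher side at that threshold. Means were higher in creatine-fed mice for 32 of 58 members (55.2%), against 41.5% of all genes. That split moved with scaling: after centring each array on its median it was 70.7% of members and 57.5% of all genes. The background at an unadjusted p under 0.05 then turned as well, to 6.21% higher and 3.60% lower. The shares of members and of all genes at that threshold given above are thus for the scaling as reported. The median difference was 0.013 over the members and -0.027 over all genes as reported, and 0.065 and 0.025 after centring.

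**Figure D1:**
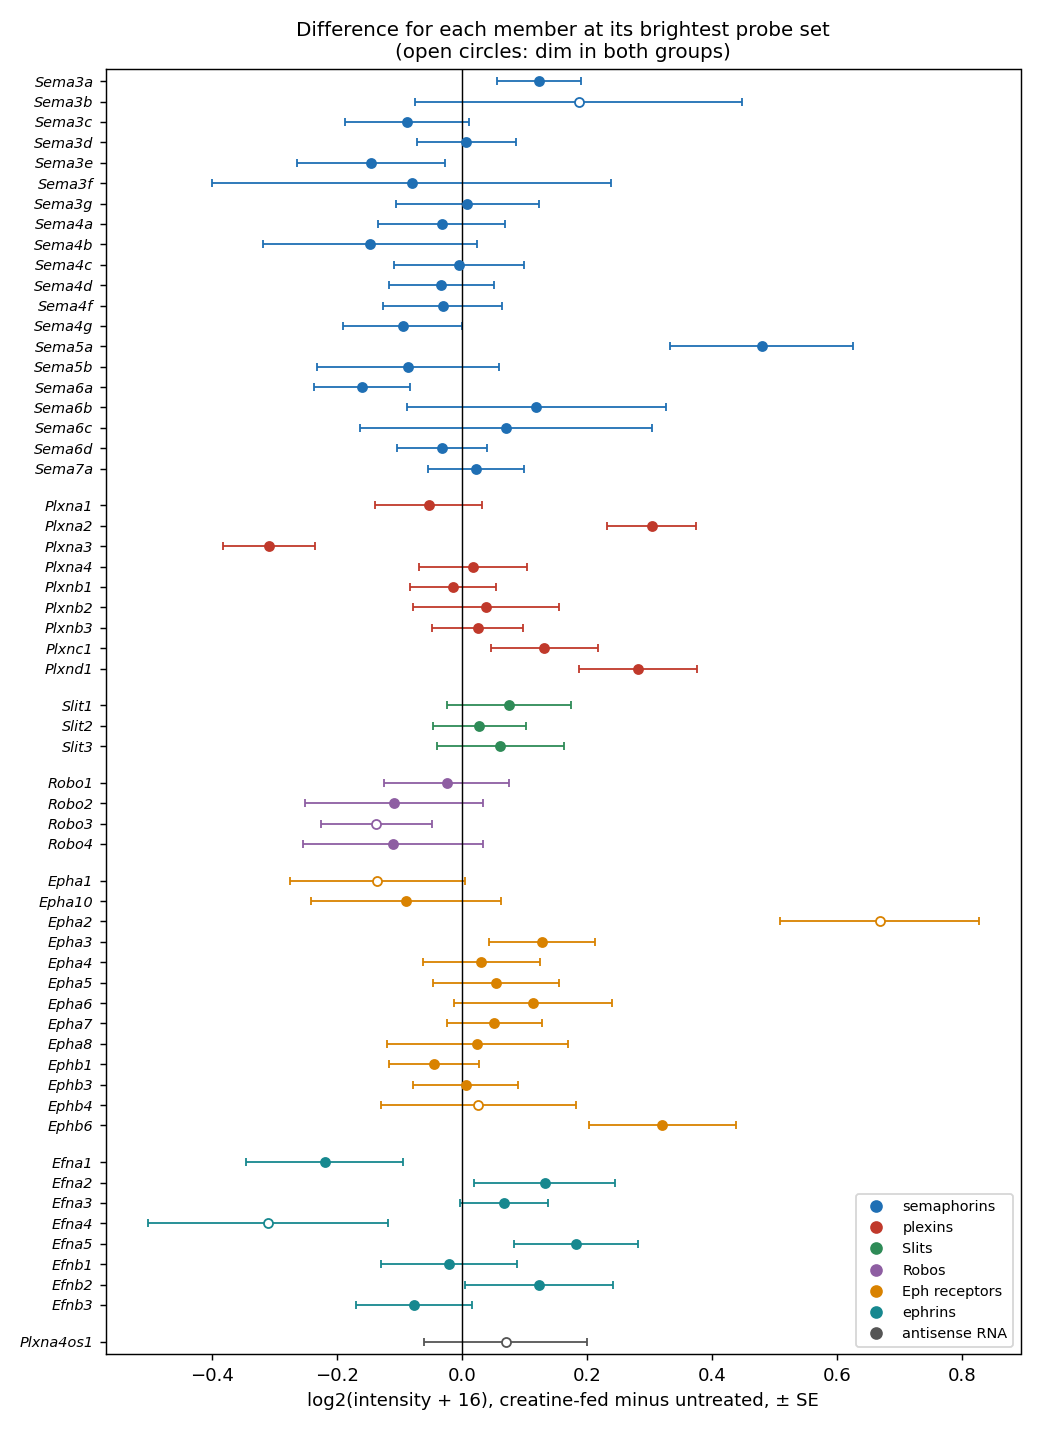
Difference between creatine-fed and untreated mice for each of the 58 members at its brightest probe set, in log2 of intensity + 16, with standard error bars and colours for the 6 families and the antisense RNA. Most members lie within 0.2 of 0; Plxna2, Plxnd1, Sema5a, Ephb6 and Epha2 stand to the right and Plxna3 and the dim Efna4 to the left.

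Plexins, the transmembrane receptors of semaphorins, held the only members with no overlap between the groups. Plxna2, a receptor for class 3 and class 6 semaphorins, read 714 at the lowest, 725.5 at the median and 763 at the highest in creatine-fed mice. In untreated mice it read 486 at the lowest, 607 at the median and 671 at the highest. Every creatine-fed mouse thus lay above every untreated mouse at this probe set, 1453286_at, and the creatine-fed mice lay close together. The means were 734 ± 21.0 (SD, n = 6) and 594 ± 57.2 (SD, n = 7), a log2 difference of 0.30 ± 0.07 (SE, adjusted p = 0.16), which did not pass.

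Plxna3, a related receptor known for repulsion by class 3 semaphorins together with neuropilins, went the other way. It read from 104 to 141 with a median of 124 in creatine-fed mice and from 143 to 167 with a median of 158 in untreated mice. Here all 6 creatine-fed mice lay below all 7 untreated mice, at probe set 1420996_at, with the 2 groups separated by a narrow gap. The means were 124 ± 14.3 and 156 ± 8.88, a log2 difference of -0.31 ± 0.07 (adjusted p = 0.161). The groups were thus apart for 2 of 58 members, 1 in each direction, where 0.253% of all genes had groups apart on the higher side and 0.396% on the lower side.

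The 250 bases before the annotated start of these 2 genes are shown because they are the only members whose groups did not overlap, in opposite directions. Both come from RefSeq on GRCm38.p6 and are written 5′ to 3′ on the gene's strand, which is the plus strand for both. Capitals mark the GC box, GGGCGG on either strand, a motif bound by Sp family factors.
Plxna2 (chr1:194619579-194619828): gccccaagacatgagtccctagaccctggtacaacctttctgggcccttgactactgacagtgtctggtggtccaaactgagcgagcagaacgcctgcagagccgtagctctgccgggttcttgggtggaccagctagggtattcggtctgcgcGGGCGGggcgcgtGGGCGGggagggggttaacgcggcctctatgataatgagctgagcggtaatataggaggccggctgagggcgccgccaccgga
Plxna3 (chrX:74328816-74329065): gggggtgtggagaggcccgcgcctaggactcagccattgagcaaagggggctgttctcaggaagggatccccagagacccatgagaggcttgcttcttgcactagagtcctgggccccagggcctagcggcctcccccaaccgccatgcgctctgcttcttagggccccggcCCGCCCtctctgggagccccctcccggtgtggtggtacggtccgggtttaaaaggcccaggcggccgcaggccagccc

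The Plxna2 window held 2 GC boxes and 18 CpG pairs at 62.8% G and C, and the Plxna3 window held 1 GC box and 12 CpG pairs at 68% G and C. Among 66 such windows matched to 50 of the 58 members by symbol, 47 held a GC box (71.2%), against 42.6% of 21262 windows of protein-coding genes. The members' windows also had a higher median G and C content, 63.8% against 55.6%. The core of the cyclic AMP response element, TGACG on either strand, stood in 6 of the 66 (9.09%), against 20.2% of windows of protein-coding genes, and in neither of the windows shown. These matches describe the letters only.

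The 2 genes differed in how well their other probe sets went with the brightest. For Plxna2, probe set 1451753_at read from 236 to 300 (median 264) in creatine-fed and from 180 to 247 (median 195) in untreated mice. That is a log2 difference of 0.38 ± 0.09 (adjusted p = 0.139), with all 6 creatine-fed mice above the untreated mean. The remaining Plxna2 probe sets, 1455037_at and 1429772_at, differed by -0.09 and 0.06. For Plxna3 the second probe set, 1420995_at, read 80.8 against 78.3, a difference of 0.03. Averaged over all probe sets of the gene, the difference shrank to 0.16 for Plxna2 and to -0.14 for Plxna3.

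Plxnd1, the plexin of developing blood vessels and of some cortical and striatal neurons, has 1 probe set here. It read from 149 to 230 (median 195) in creatine-fed mice and from 135 to 175 (median 154) in untreated mice, with 5 of 6 creatine-fed mice above the untreated mean. The groups overlapped through creatine-fed replicate 1, at 149, and replicate 2, at 174, and the difference was 0.28 ± 0.09 (adjusted p = 0.268). Plxnc1, the receptor of Sema7a, read 436 ± 38.6 against 397 ± 43.4 at its brightest probe set, a difference of 0.13 (adjusted p = 0.577). Another of its 6 probe sets, 1450906_at, read from 110 to 201 in creatine-fed and from 86 to 120 in untreated mice. Its difference was 0.55 ± 0.12 (adjusted p = 0.139), the largest of any plexin probe set, and the groups overlapped only between 110 and 120. The other 4 probe sets of Plxnc1 differed by -0.01 to 0.04.

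The other plexins differed little at their brightest probe sets. Plxna1 read 236 ± 30.5 against 245 ± 21.3 and Plxna4 read 174 ± 18.5 against 171 ± 19.5, differences of -0.05 and 0.02. Plxnb1, a receptor of Sema4d, read 200 ± 21.1 against 201 ± 7.20, a difference of -0.01. Among untreated mice Plxnb1 had the smallest coefficient of variation of the members that were not dim, 3.58%, where the median was 13.4% and the highest, for Sema6c, 38.4%. Plxnb2 and Plxnb3 differed by 0.04 and 0.02. Further probe sets differed by 0.30 for Plxna1 (1421232_at, dim), 0.02 for Plxna4, -0.16 for Plxnb1 and -0.14 for Plxnb3. The antisense RNA Plxna4os1 read 8.33 against 7.14.

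**Figure D2:**
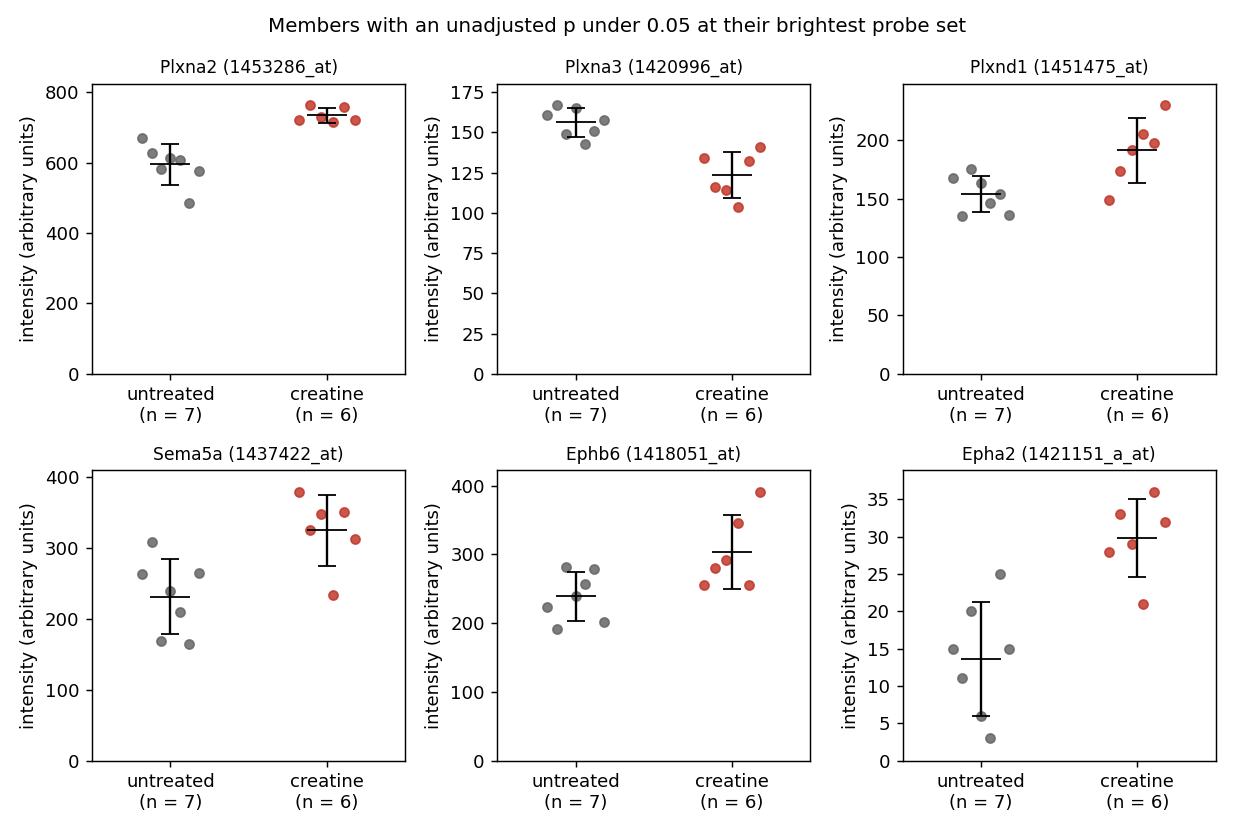
Intensity of each mouse (points; grey untreated, red creatine-fed) for the 6 members with an unadjusted p under 0.05 at their brightest probe set, with the group mean and SD as bars and the vertical axis starting at 0. The groups do not overlap for Plxna2 and Plxna3 and do overlap for Plxnd1, Sema5a, Ephb6 and Epha2.

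Semaphorins, the ligands of plexins, differed by -0.16 to 0.48 at their brightest probe sets, with a median of -0.03, and 8 of 20 had higher means. That count was 13 after centring each array, 14 when a gene's probe sets were averaged and 5 without untreated replicate 5, so no direction is given for the family. Sema5a, a transmembrane semaphorin with thrombospondin repeats, stood apart from the rest. Its brightest probe set, 1437422_at, read from 234 to 379 (median 336.5) in creatine-fed mice and from 164 to 308 (median 239) in untreated mice. Even the lowest creatine-fed mouse was above the untreated mean, by a narrow margin, and the groups overlapped. The means were 325 ± 50.0 and 231 ± 53.1, a log2 difference of 0.48 ± 0.15 (adjusted p = 0.239). The probe set was lowest among creatine-fed mice in replicate 4, at 234, and highest among untreated mice in replicate 2, at 308, which had the lowest and the highest cerebellar sum of their groups. Untreated replicate 3, with the lowest cerebellar sum, read 169, the second lowest of its group after replicate 6 at 164. Without creatine-fed replicate 4 and untreated replicate 3 the difference was 0.50 (adjusted p = 0.205), and the part of cerebellar content in the values of Sema5a was not tested. The other 3 probe sets of Sema5a differed by -0.03, -0.06 and -0.29, so that the mean over all 4 differed by only 0.02. The last of these, 1459109_at, was dim at 8.33 against 13.4. Sema5b, its closest relative, differed by -0.09.

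Class 3 semaphorins are secreted, and most are best known for repelling axons through neuropilins and plexin-A receptors. Sema3a, the first of them to be known as a growth cone collapsing factor, read from 167 to 175 in creatine-fed mice and from 136 to 175 in untreated mice. All 6 creatine-fed mice were above the untreated mean of 157 ± 15.2, and the difference was 0.12 ± 0.07 (adjusted p = 0.502). The dim Sema3a probe set 1420417_at differed by 0.41 (15.2 against 7.43, adjusted p = 0.246). Of the other 6 genes of this class Sema3b and Sema3d had higher means by 0.19 and 0.01, Sema3g by 0.01, and Sema3c and Sema3e lower means by -0.09 and -0.15. Sema3f differed by -0.08 on the log2 scale, although its mean intensity was 79 in creatine-fed and 74.3 in untreated mice. Sema3f had the widest error of all members, 0.32 on the log2 scale, at a probe set whose suffix marks probes that can match other transcripts. This probe set read from 25 to 138 in creatine-fed mice. The further Sema3f probe sets, 1425840_a_at and 1420508_at, both dim, differed by 0.40 and 0.24.

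Class 4 semaphorins are membrane-bound ligands, several of them studied in immune cells and at synapses. All 6 had lower means at their brightest probe sets, by -0.15 to -0.0044, but after centring each array on its median 4 of the 6 were higher, so no direction is given. Sema4d, a ligand that oligodendrocytes are known to carry and that acts through Plxnb1, read 219 ± 25.3 against 224 ± 21.7, a difference of -0.03. A further Sema4d probe set, 1434596_at, differed by 0.24 (128 ± 28.6 against 105 ± 10.9, adjusted p = 0.414).

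Class 6 semaphorins are transmembrane ligands of plexin-A receptors. Sema6a, a ligand of Plxna2 and Plxna4, read from 105 to 136 (median 120) in creatine-fed mice and from 111 to 145 (median 136) in untreated mice. Its difference was -0.16 ± 0.08 (adjusted p = 0.436), the lowest of the semaphorins at their brightest probe sets. Of the creatine-fed mice, 1 of 6 lay above the untreated mean. Without untreated replicate 6, which at 111 lay under all other untreated mice, the difference was -0.20. Further probe sets of Sema6a differed by -0.11 and, at the dim 1425903_at, by 0.28. Averaged over all its probe sets, Sema6a differed by 0.0027. Sema6d read 1204 ± 59.1 against 1235 ± 121, Sema6b 106 ± 26.7 against 97 ± 29.2 and Sema6c 75.5 against 75. Sema7a, a lipid-anchored ligand of Plxnc1, read 630.2 ± 55.2 against 620.4 ± 52.2, a difference of 0.02.

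Slits and Robos showed small differences. The 3 Slits, large secreted repellents, had higher means: Slit1 by 0.08, Slit2 by 0.03 and Slit3 by 0.06, each smaller than its standard error, and only 1 of the 3 was higher without creatine-fed replicate 3. Slit2 read 239 ± 22.6 against 234 ± 17.9 at its brightest probe set. Its other probe sets went in opposite directions, 1451430_at by 0.32 (94.2 ± 13.1 against 73 ± 17.6, adjusted p = 0.334) and the dim 1458140_at by -0.28. The 4 Robos, the receptors of Slits, had lower means: Robo1 by -0.02, Robo2 by -0.11, Robo3 by -0.14 and Robo4, the Robo of blood vessels, by -0.11. Robo1 turned to 0.03 after centring each array and differed by 0.20 and 0.15 at its other probe sets, and Robo4 turned to 0.0046 without creatine-fed replicate 1. No direction is therefore given for either family.

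Eph receptors had 10 of 13 higher means, where 41.5% of all genes did, and a median difference of 0.03. That count rose to 11 after centring each array, when 57.5% of all genes had higher means, or averaging a gene's probe sets. It fell to 7 without creatine-fed replicate 6, and likewise to 7 when the 3'/5' ratio entered the fit. No direction is therefore given for the family. Ephb6, an Eph receptor whose kinase domain is inactive, read from 255 to 391 (median 286) in creatine-fed mice and from 192 to 282 (median 239) in untreated mice. Each of the 6 creatine-fed values exceeded the untreated mean, and 3 of them exceeded every untreated value. The means were 303 ± 54.2 and 239 ± 35.8, a log2 difference of 0.32 ± 0.12 (adjusted p = 0.309). It has 1 probe set, so no second reading of the gene was possible.

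Epha2, an Eph receptor best known from epithelia and vessels, was dim in both groups. It read from 21 to 36 in creatine-fed mice and from 3 to 25 in untreated mice, so that the groups overlapped between 21 and 25. The difference was 0.67 ± 0.16 (adjusted p = 0.161), the largest of all members. At such low intensities it depends on the added constant: it was 1.29 with an offset of 1 in place of 16 and 0.34 with an offset of 50.

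Epha4, a receptor for both ephrin classes in hippocampal and cortical neurons and in astrocytes, has 5 probe sets, all with higher means. The brightest, 1429021_at, read 515 ± 43.9 against 506 ± 74.4, a difference of 0.03. The others differed by 0.14, 0.18, 0.12 and, at 1456863_at, 0.33 (53 ± 10.3 against 39 ± 7.44, adjusted p = 0.29). The EphA receptors of topographic maps, Epha3, Epha5 and Epha7, differed by 0.13, 0.05 and 0.05, and a further probe set of Epha3, 1425574_at, by 0.30 (adjusted p = 0.396). Epha7 read 217 ± 18.8 against 209 ± 18.1. Epha6 and Epha8 differed by 0.11 and 0.02, Epha10 by -0.09, and the dim Epha1 by -0.14 with 0.29 and 0.19 at its other probe sets, which are dim too. Of the EphB receptors, Ephb1 read 213 ± 15.6 against 221 ± 19.2 (-0.05), Ephb3 90.5 ± 9.18 against 90.3 ± 11.4 (0.01) and the dim Ephb4 9.17 against 8.71 (0.03).

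Ephrins were split, with 4 of 8 means higher. Efna5, a graded repellent of retinal and cortical maps, read from 198 to 259 (median 239.5) in creatine-fed mice and from 169 to 269 (median 205) in untreated mice. Its difference was 0.18 ± 0.10 (adjusted p = 0.503), with 5 of 6 creatine-fed mice above the untreated mean, and the other probe set, dim, differed by -0.22. Efna3 differed by 0.07 and Efna2 by 0.13, while Efna1 and the dim Efna4 differed by -0.22 and -0.31. Efnb2, the ephrin of arteries and of several neuron types, was higher at all 4 probe sets, by 0.12 at the brightest (376 ± 50.3 against 345 ± 58.1), 0.16, 0.21 and, at 1449548_at, 0.34 (68.8 ± 13.9 against 50.9 ± 10.5, adjusted p = 0.314). Efnb3, a midline repellent of corticospinal axons through Epha4, read 352 ± 55.7 against 369 ± 29.3, a difference of -0.08. Efnb1 read 112 ± 17.1 against 113 ± 16.6.

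Probe sets of the same gene often went in different directions. Of the 38 members with several probe sets, 13 had all of them on the same side of 0. At an unadjusted p under 0.05, 15 of the 129 probe sets were on the higher side (11.6%), where 4.17% of all probe sets were, and 1 was on the lower side (0.775%), where 7.70% were. These include 10 that are not the brightest of their gene, all 10 higher, from 9 genes: Plxna2, Plxnc1, Sema3a, Sema4d, Slit2, Epha1, Epha3, Epha4 and Efnb2. For 7 of these 9, other than Plxna2 and Epha1, the brightest probe set differed in a range of -0.03 to 0.13. Probe sets that read 1 gene are not independent. The shares of all probe sets beside these counts are for the scaling as reported.

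**Figure D3:**
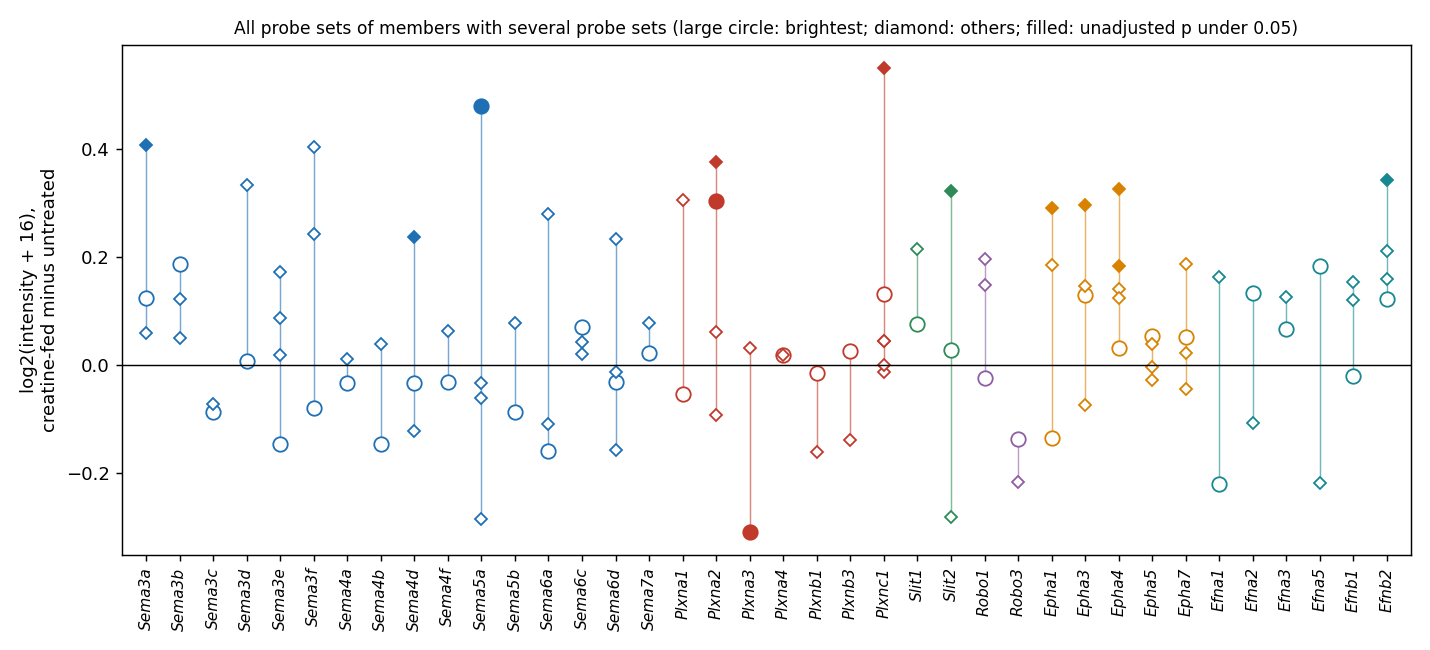
Difference between creatine-fed and untreated mice, in log2 of intensity + 16, for every probe set of the 38 members with several, where large circles are the brightest probe set, diamonds the others and filled symbols an unadjusted p under 0.05. Filled symbols lie above 0 except for the brightest probe set of Plxna3, and most genes span both sides of 0.

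Other genes of the pathway were taken from fixed lists, and none passed. Of 18 netrins, their receptors and repulsive guidance molecules, 12 had higher means (median 0.05) and 0 had an unadjusted p under 0.05. After centring each array 14 of these 18 had higher means. The 4 with the smallest p were Dscaml1 (0.13), Ntn3 (0.21), Ntn4 (-0.14) and Unc5b (-0.13). Of 16 co-receptors, 10 had higher means (median 0.01). At an unadjusted p under 0.05, 3 were higher and 1 lower, where 3.58% and 7.61% of all genes were. After centring each array 12 of the 16 had higher means, with 3 higher and 0 lower at that threshold. The shares of all genes were then 6.21% and 3.60%. Nrcam, an adhesion molecule that partners neuropilin, read 1180 ± 65.4 against 1012 ± 59.9 (0.22, adjusted p = 0.215), with the groups apart, as for 0.253% of all genes on the higher side. Nrp1, the neuropilin that binds Sema3a, read 364 ± 33.8 against 425 ± 28.9 (-0.22, adjusted p = 0.269). Plxdc1 and the syndecan Sdc3 differed by 0.19 and 0.24.

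Of 54 measured effectors, 22 had higher means (median -0.04), with 2 higher (3.58% of all genes) and 7 lower (7.61% of all genes) at an unadjusted p under 0.05. After centring each array 29 of the 54 had higher means, with 2 higher and 4 lower at that threshold, and the background was then 6.21% higher and 3.60% lower. Vasp, an actin regulator of the growth cone, read 117 ± 13.6 against 145 ± 6.23 (-0.29, adjusted p = 0.17). Itsn1 (-0.36) and Srgap1, a GTPase-activating protein downstream of Robo (-0.20), had lower means, and Pdzrn3 (0.31) a higher mean.

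With the scaling as reported, markers of cell types and regions from fixed lists were read on the same arrays. In a whole hemisphere, fewer cells of a type and less RNA per cell cannot be told apart. All 6 measured markers of the cerebral cortex had higher means, where 41.5% of all genes did. Their differences ran from 0.05 for Tbr1 to 0.30 for Mef2c. The groups were apart for Lmo4 and Mef2c, as for 0.253% of all genes on the higher side. The summed intensity of all 6 ran from 3957 to 4231 in creatine-fed and from 2997 to 3880 in untreated mice. Mef2c, the brightest, weighs most in that sum, with means of 2315 in creatine-fed and 1894 in untreated mice. Of 7 oligodendrocyte and myelin markers 6 had lower means, with sums from 16726 to 18876 against 18238 to 22730. Of 8 markers of endothelium and mural cells 6 had lower means, with sums from 1754 to 1953 against 1927 to 2031. Sums of olfactory bulb markers (5 of 6 lower, 273 to 484 against 314 to 1017) and of brainstem and monoaminergic markers (6 of 7 lower, 106 to 236 against 105 to 436) varied widely among untreated mice. Of these last 7, 5 were dim. At an unadjusted p under 0.05, 3 of them were lower, where 7.61% of all genes were. The dim En1 read from 2 to 13 against 15 to 21 (adjusted p = 0.126). Its groups were apart, as for 0.396% of all genes on the lower side. Sums of the 7 cerebellum markers varied more still, from 5820 to 13330 in creatine-fed and from 2517 to 17073 in untreated mice. In untreated replicate 3 Pcp2, a Purkinje cell gene, read 27 and Gabra6, a granule cell gene, 22, where their untreated medians were 1813 and 1668. Of these 7, 6 had higher means on the log2 scale, but 4 of the 6 had lower mean intensities. None of these markers was at 0 on any array, and none passed the test. The part of these markers in the values of the guidance genes was not tested. As a check of the labelled tissue, none of 7 neuron markers was dim, with 4 of 7 means higher, and both liver markers were dim.

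Under every alternative run the 6 differences kept their sign, where Epha2 was too dim to enter the fit on brighter probe sets. The 6 were picked by p on these same arrays, so a kept sign is no separate support for them. The lowest difference of Sema5a was 0.024. Plxna2 passed in 1 of 26 alternatives, limma with trend and robust moderation (adjusted p = 0.0277), in which 161 probe sets passed. Its probe set 1451753_at passed there (0.0381) and among the brighter probe sets (0.0496), of which 0.608% passed, and 1450906_at of Plxnc1 passed with trend and robust moderation (0.0364). Leaving out untreated replicate 3 together with creatine-fed replicate 2, or with creatine-fed replicate 4, gave the same counts of 0 past the adjusted threshold and of 5 higher and 1 lower at an unadjusted p under 0.05. Without creatine-fed replicate 4 and untreated replicate 3 the differences were 0.31 for Plxna2, -0.28 for Plxna3, 0.29 for Plxnd1, 0.32 for Ephb6 and 0.78 for Epha2.

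**Figure D4:**
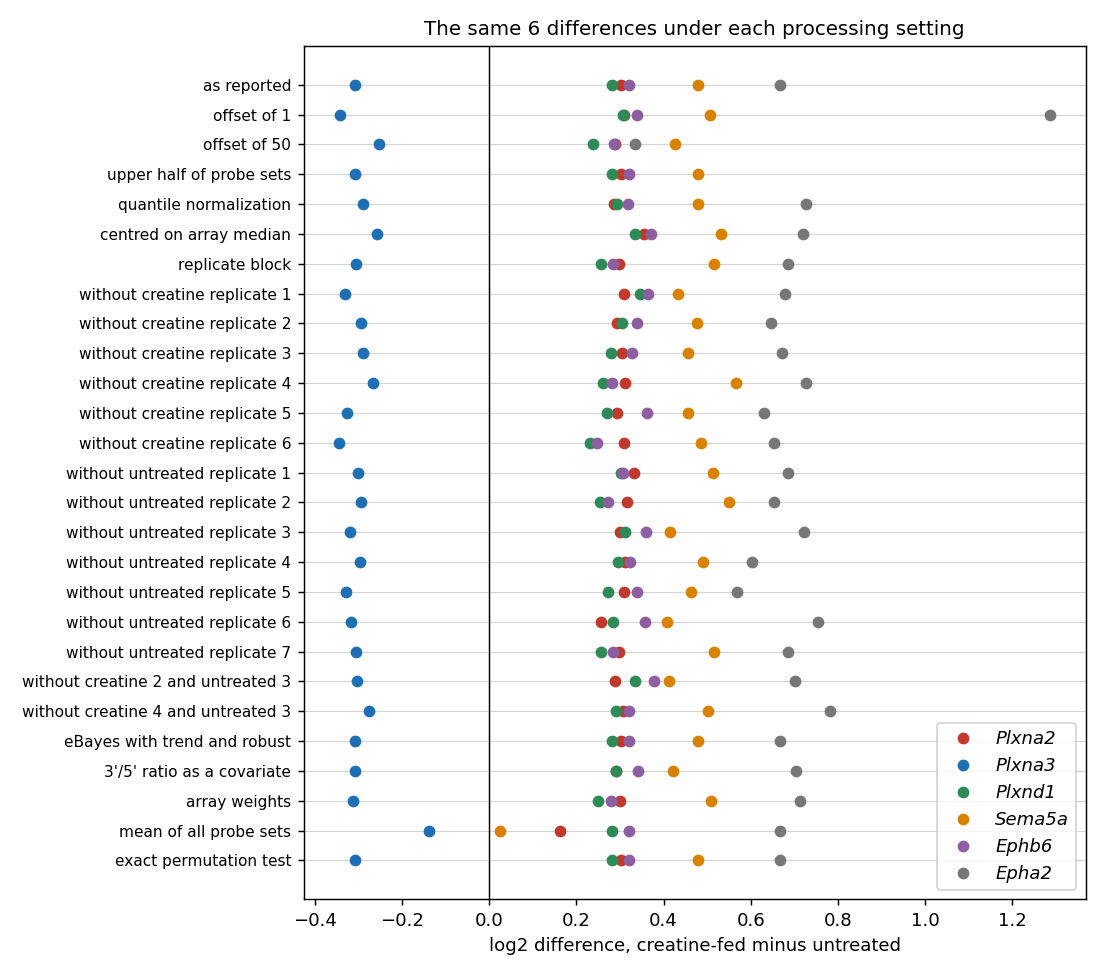
Log2 difference of the 6 members with an unadjusted p under 0.05 under the reported setting and 26 alternatives, 1 row per setting and 1 colour per gene. No gene crosses 0; Epha2 moves most with the offset, and Sema5a, Plxna2 and Plxna3 move most when all probe sets of the gene are averaged.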

How the data were processed

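Total RNA of 13 hemispheres was labelled with biotin for Affymetrix arrays, per the labels' protocols. The intensities deposited by the authors are whole numbers on a linear scale with zeros, and the 2% trimmed mean of every array was 150.05, as after global scaling. The submitters' processing notes name RMA, which returns log2 values, so the values contradict it. The sources used here name no scaling tool or target. The 64 control probe sets were left out and an offset of 16 was added before log2. Probe sets were fitted with limma 3.58.1 in R 4.3.3, 2-sided, without covariates, filter or second scaling. Tested on simulated data (45037 probe sets, 6 against 7 arrays), the fit called 45% of added log2 shifts of 0.5 and 84% of shifts of 1. The simulated noise was independent between probe sets, so variation that probe sets share on the real arrays is not in these figures. Shifts smaller than 0.5, the size of most member differences, were not tried. The number of arrays limits the precision. The p-values of limma set each group difference against the spread between these samples, moderated over all probe sets.

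Members and lists were chosen with earlier results of these data known. Genes named are, per family, up to 8 with an unadjusted p under 0.05, those with probe sets over 0.2 apart from 0 in opposite directions, a fixed set of well-known members, and up to 4 per pathway list by p. Further members and probe sets were named after their values were seen. Alternatives were offsets of 1 and 50, a filter on dim probe sets, quantile normalization, median centring, a 3'/5' covariate, array weights, trend and robust moderation, exact permutation over 1716 splits, the replicate number as a block, the mean of all probe sets, and leaving out mice. Symbols come from the platform annotation. Python 3.11.15 with matplotlib 3.10.9 drew the figures.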

Additional observations from a re-analysis of the deposited data

Results flagged for a closer look

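In 10 of 116 groups of mice (58 genes in 2 groups) 1 mouse stood far from the others of its group at the brightest probe set, by a gap test on the log2 scale that chance meets in about 5% of groups. Low values were those of Efna1 in untreated replicate 1 (21, next 36), Robo4 in creatine-fed replicate 1 (25, next 44), Sema4a in untreated replicate 2 (195, next 248), Sema4c in creatine-fed replicate 4 (61, next 80) and Sema6a in untreated replicate 6 (111, next 133). Sema6b was low in creatine-fed replicate 5 (55, next 102) and in untreated replicate 1 (43, next 88), and Sema6c was low in creatine-fed replicate 5 (46, next 73). High values were those of 2 dim members, Ephb4 in untreated replicate 7 (21, next 9) and Plxna4os1 in creatine-fed replicate 2 (17, next 8). None of the 6 members with an unadjusted p under 0.05 was among them.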

How the results depend on the processing

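The count of members past the adjusted threshold was 0 as reported and in 25 of 26 alternatives, and 1, Plxna2, with trend and robust moderation. Members lower at an unadjusted p under 0.05 numbered 1 as reported and 2 with an offset of 50, among the brighter probe sets, with a covariate for the 3'/5' ratio and by exact permutation. Without 1 mouse that count was 1 to 2, with 2 when creatine-fed replicate 2, 3 or 5 or untreated replicate 1, 4 or 6 was left out, and the count of members higher was 5 to 6. The median difference over members moved from 0.013 to 0.065 after centring each array, and 27 to 33 members had higher means without 1 mouse. Of 41 named differences, 25 kept their sign throughout and 16 turned in at least 1 alternative. None of the 16 had an unadjusted p under 0.05 as reported. The alternatives refit the same arrays, so this gives no separate support to differences with a small p. The exact permutation test can give no p below 0.00058, and its lowest adjusted p over all probe sets was 0.17, so it called no gene. With the replicate number as a replicate block the counts were 0 past the adjusted threshold and 5 higher and 1 lower at an unadjusted p under 0.05. Correlations of same-numbered mice ran from -0.06 to 0.15, and 1 of 6 creatine-fed mice correlated best with its own number. No pairing by number was seen, but low correlations cannot exclude that same-numbered mice were handled together. Leaving out the array lowest in cerebellum markers from each group (creatine-fed 4, untreated 3) was an alternative chosen after seeing the data. The filter on dim probe sets kept 50 of the 58 members.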
